A study of Mus musculus with 6 samples.

Results

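Expression of 10 genes of the mTOR pathway and of translation control was examined in the pre-limbic cortex (PLc), which belongs to the medial prefrontal areas, of mice given repeated ketamine or saline. The genes were taken by name from the deposited table, which lists 37620 genes, and each of the 10 names matched 1 row. They are Mtor and Rptor, Tsc1, Tsc2 and Rheb, Rps6kb1, Eif4ebp1 and Eif4ebp2, and Eef2 and Eef2k. The mice were C57Bl/6, 9 weeks old and, in the study's methods, male. The labels name no transgene or deletion. Ketamine, an antagonist of the NMDA receptor, was injected intraperitoneally at 30 mg/kg once daily for 5 days into 3 mice, numbered 3, 5 and 9. Saline was given in the same way to 3 mice, numbered 1, 6 and 10. Tissue was taken 2 days after the last injection, so the comparison is of the PLc some days after treatment ended, and each mouse gave its own library.

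mTOR is a serine/threonine kinase that joins growth factor, amino acid and energy signals to protein synthesis. In complex 1 (mTORC1) it works with the scaffold Raptor. The GTPase Rheb switches the complex on, and the TSC1-TSC2 complex holds Rheb off. Active mTORC1 phosphorylates S6 kinase 1, and it phosphorylates the 4E-binding proteins, which then release the cap-binding factor eIF4E so that initiation can proceed. Elongation is governed by eEF2, which moves the ribosome along the messenger RNA, and by eEF2 kinase, which inhibits it. In neurons, eEF2 kinase is activated by calcium and calmodulin, and the pathway has been tied to the synaptic actions of ketamine. Its steps are driven largely by phosphorylation, which RNA sequencing does not measure.

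None of the 10 genes differed between ketamine and saline mice beyond the spread between mice. The test covered the 16127 genes that averaged 10 or more normalized counts, and limma called 0 of them at an adjusted p under 0.05, that is 0% (two-sided, Benjamini-Hochberg adjustment). All 10 genes passed the filter, and 0 of them were called. At an unadjusted p under 0.05 limma found 5.81% of all genes and 0 of the 10. On the recovered reads, edgeR also called 0% of all genes and none of these 10, and DESeq2 called 1.13% of all genes (6.54% at an unadjusted p under 0.05) and none of these 10. Limma without ketamine mouse 9 called 0.0062% of all genes, and DESeq2 with offsets for exon length called 1.55%, again with 0 of the 10. Groups that did not overlap were found for 10.3% of all genes and for 0 of the 10. A normalized count here is a gene's read count divided by a size factor for its library. The largest of the 10 differences, on the log2(normalized count + 1) scale, was that of Eef2k at -0.24, and the smallest was that of Eif4ebp2 at -0.0095. Of the 10 differences 9 were negative, with a median of -0.15, beside -0.014 over all genes, of which 53.0% were negative. The ketamine mice were spread more widely than the saline mice. Mouse 9 was the lowest of all 6 mice for 8 of the 10 genes and the highest for 1, beside 29.1% and 29.4% of all genes. Without mouse 9 the median of the 10 was 0.031. Below, values are given in the order of saline mice 1, 6 and 10 and of ketamine mice 3, 5 and 9, and SE stands for standard error.

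Library depth lay between 26273436 and 32643726 reads. Ketamine mouse 9 stood apart in how its values ran with exon length. Genes with long annotated exons had lower values there and genes with short exons had higher values. Among the longest 10% of genes (exons of 7990 bases or more), the median difference from the saline mean was -0.46 on the log2 scale in mouse 9, 0.089 in mouse 3 and 0.16 in mouse 5. Among the shortest 10% (1276 bases or fewer) these medians were 0.36, -0.086 and -0.16. Markers of neighbouring tissue varied as well. All 10 markers of cortical excitatory neurons were detected in every library, and they summed to 185067 to 239445 normalized counts under saline and to 107464 to 181198 under ketamine. Of these 10, 3 were lower in every ketamine mouse than in any saline mouse. Over all genes tested, 4.66% were lower in every ketamine mouse and 5.69% were higher. The 16 striatal markers, of which Isl1 was at 0 in some library, summed to 10820.0 to 13589.8 under saline. Their sums were 78057, 40554 and 12261 in ketamine mice 3, 5 and 9, and 5 of the 16 were higher in every ketamine mouse. The 8 olfactory bulb markers summed to 253.9 to 935 under saline and to 2015, 1671 and 11258 under ketamine (mice 3, 5 and 9), with 5 of 8 higher in every ketamine mouse and Lhx5 and Uncx at 0 in some library. The 8 oligodendrocyte markers reached 402782 in saline mouse 10, against 59983 or less in the other saline mice and 111556 to 171337 under ketamine. The 8 markers of GABAergic neurons summed to 21141 to 25815 under saline and to 28419 to 43212 under ketamine, with 5 of the 8 higher and 2 lower in every ketamine mouse. The sums for astrocytes, microglia, endothelial cells and choroid plexus overlapped between the groups. For choroid plexus, saline mouse 10 stood apart at 3157, against 110 and 235 in saline mice 1 and 6 and 223 to 797 under ketamine. The part of these markers and of the length trend in the values below was not tested, and in bulk tissue fewer cells of a type and less RNA per cell cannot be told apart.

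**Figure D1:**
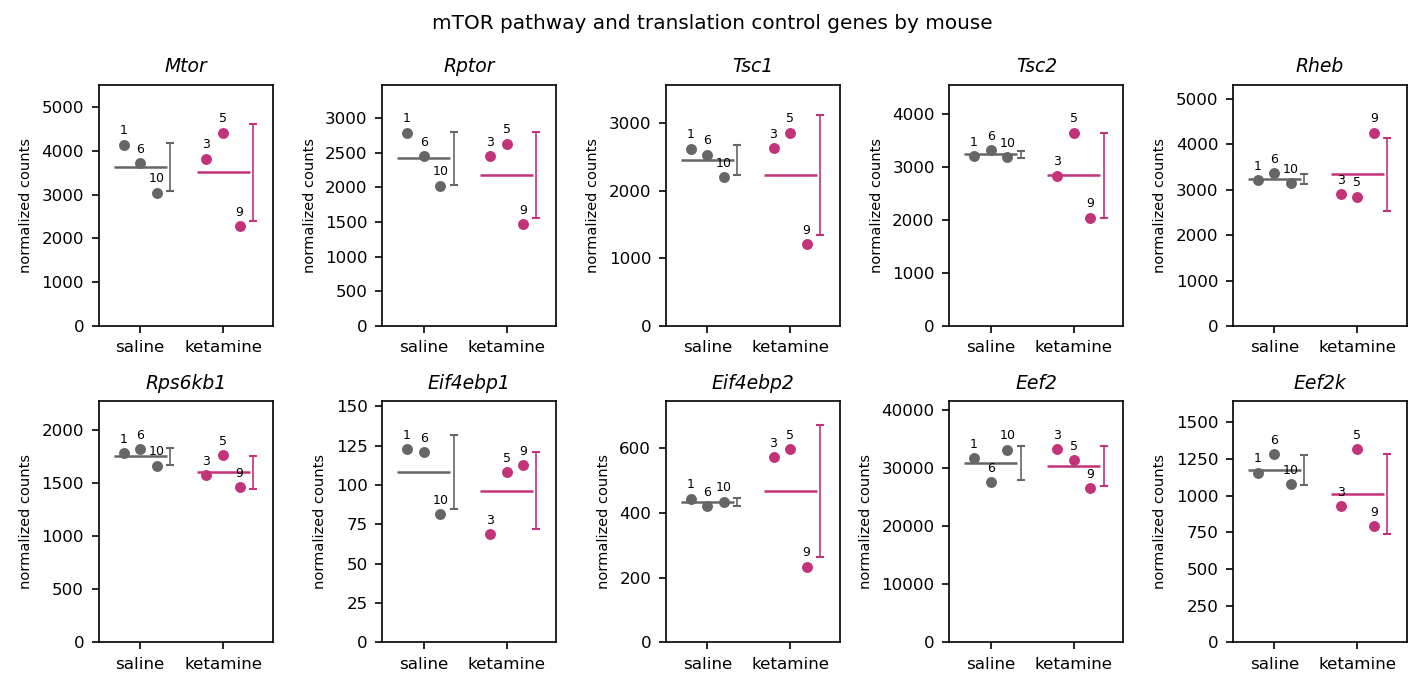
Normalized counts of the 10 genes in each mouse (y axes from 0, points numbered by mouse, horizontal lines for group means, bars for SD, n = 3 mice per group). Ketamine mouse 9 is the lowest of all 6 mice for 8 genes and the highest for Rheb, and saline and ketamine mice overlap in every panel.

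The kinase and its scaffold were described first. Mtor (ENSMUSG00000028991) encodes the kinase itself and spans 147822720 to 147931792 of chromosome 4 of the mm9 build, to which all gene positions here refer, on the plus strand. Its saline values were 4140.1, 3715 and 3042 normalized counts and its ketamine values 3822, 4413 and 2282. Mouse 3 was within the saline range, mouse 5 above it and mouse 9 below it. The means were 3632 ± 554 and 3506 ± 1100.0 (SD, n = 3 each), and the log2 fold change was -0.094 (SE 0.259, 95% interval -0.70 to 0.52, limma adjusted p = 0.999). Without mouse 9 the log2 fold change was 0.19, and without saline mouse 1 it was 0.0065, so the sign of the difference rested on single libraries.
Rptor (ENSMUSG00000025583, plus strand of chromosome 11 from 119464219 to 119760890) encodes Raptor, which presents substrates to the kinase. Its saline values were 2788, 2450.4 and 2022 normalized counts and its ketamine values 2446, 2629 and 1468. Mouse 9 alone was outside the saline range, below every saline mouse. Rptor had a log2 fold change of -0.18 (SE 0.246, 95% interval -0.76 to 0.39, limma adjusted p = 0.999) and 0.0801 without mouse 9.

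For the brake and the switch, the ketamine mice lay on both sides of the saline mice. Tsc1 (ENSMUSG00000026812, plus strand of chromosome 2 from 28496748 to 28546687) encodes hamartin, the subunit that stabilizes the TSC complex. Its saline values were 2621, 2533 and 2203 normalized counts and its ketamine values 2634, 2859 and 1208. Mice 3 and 5 were above every saline mouse and mouse 9 was far below them, at a log2 difference of -1.02 from the saline mean. The log2 fold change of -0.23 (SE 0.319, 95% interval -0.98 to 0.52, limma adjusted p = 0.999) turned to 0.17 without mouse 9.
Tsc2 (ENSMUSG00000002496, minus strand of chromosome 17 from 24732882 to 24769574) encodes tuberin, the subunit that makes Rheb hydrolyse its GTP. The saline mice were close together, at 3207, 3321 and 3191 normalized counts. The ketamine mice, at 2842, 3650.1 and 2049, lay on both sides of them. Tsc2 had a log2 difference of -0.23 (SE 0.210, 95% interval -0.72 to 0.27, limma adjusted p = 0.999) and of -0.0083 without mouse 9. It shares 578 exon bases, 9.11% of its own, with Pkd1 on the other strand. Pkd1 averaged 3264 normalized counts, and the strand setting of the counting is not given in the sources used here. Whether reads from the shared bases were counted for Tsc2 is therefore not known.
Rheb (ENSMUSG00000028945, minus strand of chromosome 5 from 24308641 to 24348442), the GTPase that activates mTORC1, ran the other way. Its saline values were 3211, 3360.5 and 3139.6 normalized counts and its ketamine values 2907, 2847 and 4256. Mice 3 and 5 were below every saline mouse and mouse 9 above, an arrangement seen in 7.53% of all genes tested. For Rheb the log2 fold change was 0.019 (SE 0.178, 95% interval -0.40 to 0.44, limma adjusted p = 0.999) and -0.17 without mouse 9.

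Among the substrates, Rps6kb1 (ENSMUSG00000020516, minus strand of chromosome 11 from 86312373 to 86358307), the gene of S6 kinase 1, varied least between ketamine mice on the log2 scale. Its values under saline were 1778, 1817 and 1661 normalized counts and its ketamine values 1574, 1764 and 1460.3. Mice 3 and 9 were below every saline mouse and mouse 5 was within their range. It had a log2 difference of -0.13 (SE 0.126, 95% interval -0.43 to 0.16, limma adjusted p = 0.999), and it was negative with any single mouse left out, between -0.21 and -0.071. Its interval was the narrowest of the 10. Rps6kb1 shares 155 exon bases with Rnft1 on the other strand.
Eif4ebp2 (ENSMUSG00000020091, minus strand of chromosome 10 from 60895245 to 60915417) encodes 4E-BP2, the main 4E-binding protein of the brain. The saline values were 443.5, 421 and 434 normalized counts, with an SD of 0.038 on the log2 scale. The ketamine values were 572, 595.5 and 233, with an SD of 0.76. Mice 3 and 5 stood above every saline mouse and mouse 9 below, an arrangement found in 5.63% of all genes and, among the 10, also in Tsc1. These opposite deviations cancelled in the group mean, for which the log2 fold change was -0.0095 (SE 0.351, 95% interval -0.83 to 0.82, limma adjusted p = 0.9999). Without mouse 9 it was 0.43 (SE 0.107, 95% interval 0.17 to 0.69), at a limma p of 0.00704 before and 0.295 after adjustment, where 10.1% of all genes had an unadjusted p under 0.05. DESeq2 without mouse 9 gave 0.44 with an adjusted p of 0.0612, and called 2.69% of all genes. That was the lowest adjusted p of any of the 10 genes in any fit, and it did not pass.
Eif4ebp1 (ENSMUSG00000031490, plus strand of chromosome 8 from 28370799 to 28386128) encodes 4E-BP1 and had the fewest reads of the 10. Under saline it had 122.6, 121 and 81.3 normalized counts and its ketamine values were 68.5, 108 and 112. Mouse 3 was the lowest and the other 2 ketamine mice were within the saline range. Eif4ebp1 had a log2 difference of -0.17 (SE 0.280, 95% interval -0.83 to 0.48, limma adjusted p = 0.999), and of 0.052 without mouse 3.

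At the elongation step, Eef2 (ENSMUSG00000034994, plus strand of chromosome 10 from 80639376 to 80645252) was the most abundant of the 10. Its messenger RNA is a known carrier of the terminal oligopyrimidine tract, through which mTORC1 controls the translation of ribosomal proteins and elongation factors. Its saline values were 31672, 27566 and 33161 normalized counts and its ketamine values 33198, 31336 and 26515. Mouse 3 was just above and mouse 9 just below the saline range, and the means were 30800 ± 2897 and 30350 ± 3449 (SD, n = 3 each). The difference in Eef2 was -0.023 on the log2 scale (SE 0.167, 95% interval -0.42 to 0.37, limma adjusted p = 0.999).
Eef2k (ENSMUSG00000035064, plus strand of chromosome 7 from 127986345 to 128050733), the gene of the kinase that inhibits eEF2, had saline values of 1157, 1282 and 1079 normalized counts and ketamine values of 929.9, 1316 and 790.4. Mice 3 and 9 were below and mouse 5 above every saline mouse. The difference in Eef2k was -0.24 on the log2 scale (SE 0.203, 95% interval -0.72 to 0.23, limma adjusted p = 0.999). It was negative with any single mouse left out, from -0.45 without mouse 5 to -0.0805 without mouse 9. In GENCODE M1 a second gene of the same name, unnamed in the deposited table, covers the last 1781 exon bases of Eef2k, 24.9% of its exons, and is listed at 0 in every library.

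**Figure D2:**
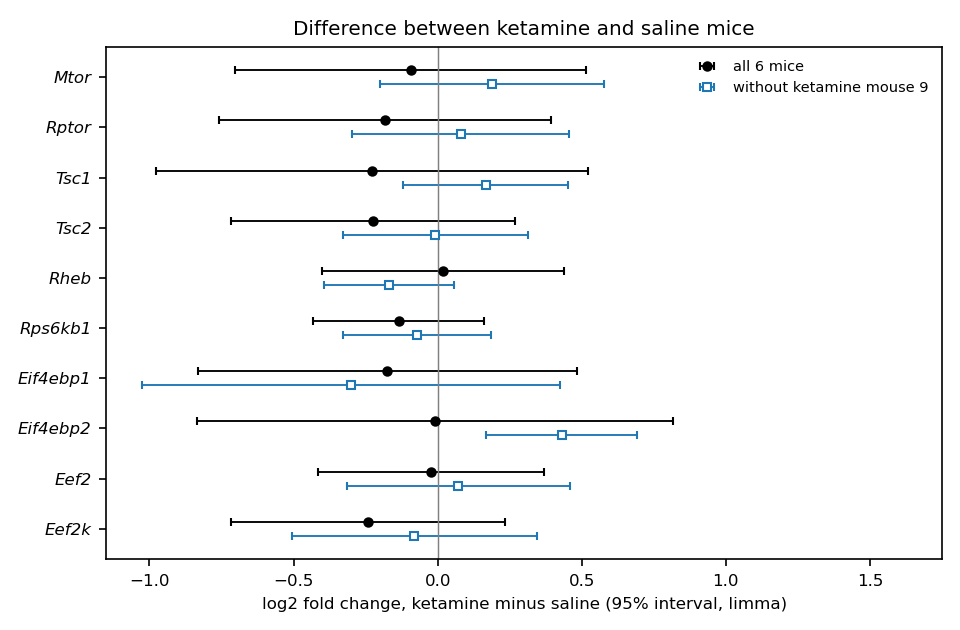
Log2 fold change of each gene between ketamine and saline mice (x axis, log2 scale, limma) with its 95% interval, from all 6 mice (filled circles) and without ketamine mouse 9 (open squares). Every interval from 6 mice holds 0, and without mouse 9 only that of Eif4ebp2, from 0.17 to 0.69, does not.

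Levels between genes were compared per kilobase of annotated exon. In saline mice Eef2 was far ahead, at 9942 ± 935 normalized counts per kilobase (SD, n = 3), or 17.0 times the level of Rheb, the next in order, and 60.7 times that of its kinase Eef2k. Rheb had 584 ± 20.3 and Tsc2 510.4 ± 11.1 per kilobase. Mtor followed at 359 ± 54.8, and its saline values did not overlap with those of Tsc2 above or of Eif4ebp2 below, at 242 ± 6.39. Tsc1, Rps6kb1, Rptor and Eef2k, with means between 164 and 207 per kilobase, followed in that order, and the saline values of each overlapped those of the next. Eif4ebp1 was last at 110.3 ± 23.8, so that Eif4ebp2 had 2.20 times its level. Tsc2 had 2.46 times the level of Tsc1, its partner in the complex. The order of the 10 means was the same in ketamine mice. These levels depend on the annotated exon length, which ran from 981 bases in Eif4ebp1 to 13471 in Rptor. For Eef2k, 24.9% of the exon bases also belong to a second gene, listed at 0 in every library. If reads there went uncounted, the level of Eef2k is too low, its place may be wrong and the 60.7 is too high. That was not tested.

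The sequence just before the annotated start is shown for 3 genes, namely Eef2, the most abundant by far, Mtor, the kinase, and Eif4ebp2, the gene in which ketamine mice lay farthest to both sides of saline mice. Each run holds the 100 bases before the start in RefSeq on GRCm38.p6, read 5′ to 3′ on the gene's own strand, with capitals for the motif letters found on either strand. The motifs searched were the TATA box TATAAA, the E-box CACGTG, the CCAAT box CCAAT and the GC box GGGCGG. The runs lie at chr10:81176531-81176630 on the plus strand for Eef2, at chr4:148448482-148448581 on the plus strand for Mtor and at chr10:61452670-61452769 on the minus strand for Eif4ebp2.
Eef2: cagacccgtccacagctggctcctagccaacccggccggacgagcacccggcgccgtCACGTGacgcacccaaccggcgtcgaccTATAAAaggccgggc
Mtor: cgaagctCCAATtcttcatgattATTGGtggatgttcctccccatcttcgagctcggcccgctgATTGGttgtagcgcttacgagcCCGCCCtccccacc
Eif4ebp2: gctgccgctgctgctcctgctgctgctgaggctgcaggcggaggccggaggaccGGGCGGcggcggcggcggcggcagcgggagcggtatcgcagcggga
Eef2 alone of the 9 genes with an entry had the TATA box letters, which 5.56% of all 32851 such windows hold. Mtor alone had the CCAAT letters, found in 18.9% of all windows. The E-box letters, present in 3.17% of windows, occurred in Eef2, Eef2k and Rheb, and the GC box letters, present in 24.7%, in Mtor, Eif4ebp2, Rheb and Eef2k. Eef2k has several annotated starts, and a match at any of them was counted. Overlap between these motifs did not arise in the 3 runs shown. No match was found in the windows of Rptor, Tsc1, Tsc2 and Rps6kb1.

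The 10 genes were more widely spread in ketamine than in saline mice. The SD of log2 values was larger in ketamine than in saline mice for 10 of 10 genes, and for 65.1% of all genes tested. The median SD of the 10 was 0.13 in saline and 0.41 in ketamine mice, beside 0.19 and 0.28 over all genes. Ketamine mouse 9 was below all 5 other mice in 8 of the 10, namely Mtor, Rptor, Tsc1, Tsc2, Rps6kb1, Eif4ebp2, Eef2 and Eef2k, where 29.1% of all genes had it there. It was above all others in Rheb, as it was in 29.4% of all genes. The median deviation from the saline mean over the 10 genes was -0.61 in mouse 9, -0.063 in mouse 3 and 0.15 in mouse 5 on the log2 scale, and over all genes it was 0.0017, -0.010 and -0.0018.
The deviations in mouse 9 were then set beside those of genes of like exon length, in 30 bins. Rptor at -0.71 was close to the median of its bin, -0.64. Mtor at -0.66 and Tsc1 at -1.02 were lower than theirs, at -0.41 and -0.64. Tsc2 was at -0.66 where its bin had -0.24. Eif4ebp2, with 1786 annotated exon bases, was at -0.89 where its bin had 0.23. Rheb was at 0.40 where its bin had -0.17. Centring each library on its length bins thus left -0.063 for Rptor, -0.27 for Mtor, -0.37 for Tsc1 and -0.42 for Tsc2 in mouse 9, and widened the deviation to -1.11 for Eif4ebp2 and to 0.56 for Rheb. It turned the sign for Rps6kb1, from -0.26 to 0.11, and for Eif4ebp1, from 0.079 to -0.30. Eef2k went from -0.57 to -0.27 and Eef2 from -0.21 to -0.28. In this fit, added after the data had been seen, limma again called 0 of the 10, and the log2 fold changes lay between -0.20 for Eef2k and 0.051 for Rheb.

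**Figure D3:**
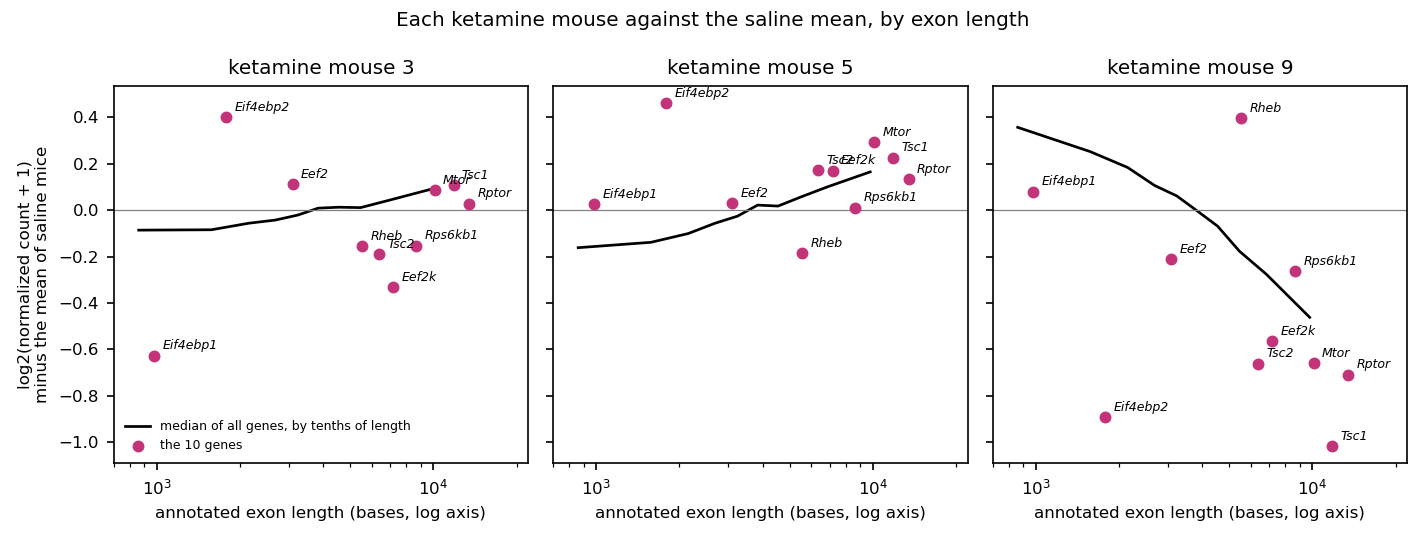
Difference of log2(normalized count + 1) from the mean of the saline mice (y axis) against annotated exon length in bases (x axis, log scale) in each ketamine mouse, for the 10 genes (points) and as the median of all genes in 10 classes of length (line). The line runs from 0.36 down to -0.46 in mouse 9 and rises slightly in mice 3 and 5. In mouse 9 Eif4ebp2 and Tsc2 lie well below the line and Rheb lies well above it. Tsc1, at -1.02, is longer than the last point of the line, and genes in its length bin had a median of -0.64.

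Ratios within a mouse hardly depend on the size factor, and 4 of them were compared. The log2 ratio of Eif4ebp1 to Eif4ebp2 was -1.85, -1.79 and -2.40 under saline and -3.04, -2.45 and -1.04 under ketamine. Mice 3 and 5 had less Eif4ebp1 for each Eif4ebp2 than any saline mouse and mouse 9 had more. The difference between the groups was -0.16 (exact permutation test, two-sided, p = 0.9). Without mouse 9 it was -0.73 (exact permutation p = 0.2, where 5 mice allow 0.1 at the least).
The log2 ratio of Eef2k to Eef2 was -4.71 ± 0.262 in saline and -4.93 ± 0.314 in ketamine mice (SD, n = 3 each), with an exact permutation p of 0.4. That of Tsc1 to Tsc2 was -0.41 ± 0.122 and -0.41 ± 0.329 (SD, n = 3 each, exact permutation p = 1). The log2 ratio of Rptor to Rictor, the scaffolds of complex 1 and complex 2, was 0.37 ± 0.143 in saline and 0.37 ± 0.146 in ketamine mice (SD, n = 3 each, exact permutation p = 1). Adjusted over the 4 ratios each p was 1, and with 3 mice against 3 the smallest p this test allows is 0.1. Rictor itself had saline values of 1997, 1820.2 and 1746 normalized counts and ketamine values of 2032, 2112 and 1009, the arrangement of Eif4ebp2 and Tsc1.

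The wider pathway was read from 8 lists with 116 genes, of which 114 were matched and all of these were tested. Limma, edgeR and DESeq2 each called 0 of the 114, beside 0%, 0% and 1.13% of all genes. Of the 114, 37 had positive and 77 negative log2 fold changes, with a median of -0.040. At an unadjusted p under 0.05 limma found 1 of them. The groups did not overlap for 1 gene that was higher in ketamine mice (beside 5.69% of all genes) and for 3 that were lower (beside 4.66%).
Among the 9 partners of the mTOR complexes, the median log2 fold change was -0.019, and it was 0.061 without ketamine mouse 9 and 0.0099 without saline mouse 10. The smallest p-values were those of Prr5, a subunit of complex 2, and Deptor, an inhibitor of both complexes. Their log2 fold changes were 0.26 and -0.22. With each mouse left out, Prr5 ran from 0.062 (without ketamine mouse 3) to 0.48 (without saline mouse 10) and Deptor from -0.52 (without saline mouse 10) to -0.042 (without ketamine mouse 3). Mlst8, the subunit shared by both complexes, was named after its values were seen, as the 1 gene higher in every ketamine mouse. It ranged from 915.9 to 975.7 normalized counts under saline and from 975.9 to 1008 under ketamine, a log2 fold change of 0.056.
Over 17 genes of growth factor input, 14 were negative and the median was -0.12, which turned to 0.017 without ketamine mouse 9. With each other mouse left out it lay between -0.24 (without saline mouse 10) and -0.049 (without saline mouse 1). Ketamine mouse 9 was the lowest of the 6 mice for 12 of these 17 genes, whose median exon length was 6259 bases, beside 3527 over all genes and 6756.5 for the 10 genes above. Pik3r2, a regulatory subunit of PI3-kinase, had a log2 fold change of -0.28 (limma adjusted p = 0.951).
In the 23 tested genes of amino acid input, which include the Rag GTPases and the Ragulator and GATOR complexes, the median was -0.028. The smallest p-values were those of the Rag genes Rragd and Rragb, with log2 fold changes of 0.31 and 0.17. Rragd was at 0.064 without saline mouse 10, and Rragb at 0.069 without ketamine mouse 3. In the 8 genes of autophagy, which mTORC1 holds back, the median was -0.11, with Ulk2 at -0.25 and Rb1cc1 at -0.29 (-0.15 without ketamine mouse 9).
Energy and stress input held the only unadjusted p under 0.05 in the lists. Prkag2, a regulatory subunit of AMP-activated kinase, had saline values of 2812, 2855 and 2609 normalized counts and ketamine values of 1905, 2415 and 2170.0. Every ketamine mouse was below every saline mouse. Prkag2 had a log2 difference of -0.36 (SE 0.133, adjusted p = 0.788 by limma and 0.542 by DESeq2), and of -0.36 without mouse 9. Ddit4l, a stress-induced inhibitor of mTORC1, had saline values of 870.7, 864 and 528 normalized counts and ketamine values of 368, 431 and 699.8. Mice 3 and 5 were below every saline mouse while mouse 9 lay among them. Its log2 fold change was -0.61 (SE 0.297, limma adjusted p = 0.929). Without mouse 9 limma gave -0.88 and DESeq2 gave -0.91 with an adjusted p of 0.0382. It was the only call among the 114 genes in any of the fits. That DESeq2 fit, added after the data had been seen, called 2.69% of all genes. Its ketamine mice, 3 and 5, had striatal marker sums of 78057 and 40554, against 10820 to 13590 in saline mice. Whether tissue content had a part in this call was not tested. The median of the 11 genes of energy and stress input was -0.059.
Among the translation factors none passed the test either. Over 22 genes of initiation the median log2 fold change was -0.018 and the median of the absolute values was 0.046, beside 0.15 over all genes. Eif4ebp3, the least abundant of the 4E-binding proteins, had saline values of 15.3, 17.4 and 18.7 normalized counts and ketamine values of 11.8, 13.2 and 5.44, with a log2 difference of -0.78 (SE 0.426, limma adjusted p = 0.986) and of -0.43 without mouse 9. Eif4g3, a scaffold of the cap-binding complex, was at -0.34, and at -0.14 without mouse 9. In 14 genes of eIF2 control the median was -0.042, and with each mouse left out it ran from -0.12 (without ketamine mouse 9) to 0.010 (without ketamine mouse 5). Among them were Eif2ak1, the haem-regulated eIF2 kinase, at -0.16 and lower in every ketamine mouse, and Ppp1r15b, a phosphatase subunit that reverses the action of these kinases, at 0.18. Eif2ak1 was at -0.10 without saline mouse 1, and Ppp1r15b at 0.12 without ketamine mouse 3. The 10 elongation factor genes had a median of 0.013, and of -0.11 without mouse 9. Mouse 9 was the highest of the 6 mice for 6 of these 10 genes, and their median difference from the saline mean was 0.31 there, -0.14 in mouse 3 and -0.14 in mouse 5. Their median exon length was 2566 bases. The smallest p-values were those of Dph1, an enzyme of diphthamide synthesis on eEF2, and Eef1a2, the neuronal form of eEF1A. Dph1 had a log2 fold change of -0.44 (limma adjusted p = 0.875) and Eef1a2 one of -0.19 (-0.094 without saline mouse 1).

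**Figure D4:**
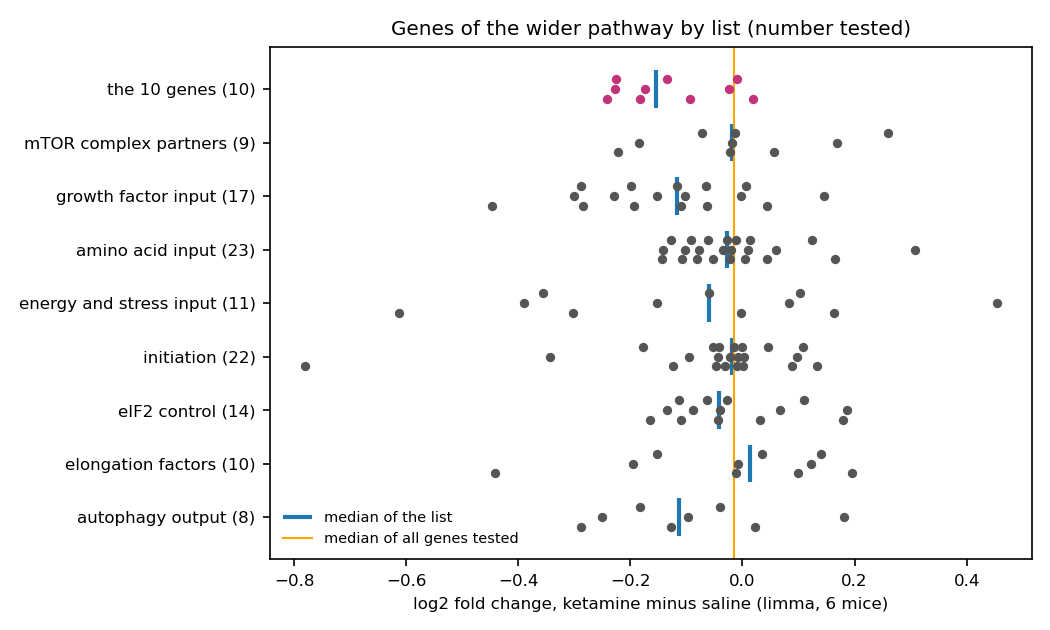
Log2 fold change between ketamine and saline mice (x axis, limma, 6 mice) for each tested gene of the 10 genes and the 8 pathway lists (rows, number tested in brackets), with the median of each list (blue) and of all genes tested (orange). From 6 mice the list medians lie between -0.15 and 0.013, and none of the genes shown passed the test in this fit.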

How the data were processed

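PLc RNA of 6 mice was sequenced by the authors with paired-end reads on an Illumina instrument. The authors aligned the reads to mm9 with TopHat2 2.0.11 and counted them per gene with HTSeq. The annotation and strand setting are not given in the sources used here. What was deposited is a signal: each gene's count over a size factor for its library. Of these values, 100.0% were whole multiples of the value of 1 read within 0.0055, which gave the reads back. The deposited factors were 1.044 for saline mouse 1 and 1.022 for ketamine mouse 3. DESeq2 factors recomputed from the recovered reads were 1.023 and 0.986, so the 2 sets are not proportional. Groups and mouse numbers came from the sample titles. The labels name no batch, and p-values measure the spread between these 6 mice.

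Log2(normalized count + 1) was compared by limma (version 3.58.1, R 4.3.3, trended prior) over genes averaging 10 or more normalized counts, and p-values were adjusted over all of them. On recovered reads, edgeR 4.0.16 and DESeq2 1.42.0 were alternatives. Tests were checked on simulated reads. Coordinates and exon lengths are those of GENCODE M1 on mm9, promoters those of RefSeq on GRCm38.p6. Gene symbols were matched to the table and, for 4 genes of the pathway lists, through RefSeq synonyms. The genes and lists were chosen with earlier results of these data known. Named are the 10 genes, Rictor and the 2 genes of each list with the smallest p, and any other is marked. A gene that this rule names is not reported here. The length centring, the fit without ketamine mice 3 and 5, and the DESeq2 fits without mouse 9 and with length offsets were added after seeing the data.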

Additional observations from a re-analysis of the deposited data

How the results depend on the processing

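Pseudocounts of 0.1 and 5, no filter, a filter of 100 normalized counts, recomputed size factors, upper-quartile and TMM scaling, no variance trend, edgeR, DESeq2, each mouse left out, length centring and DESeq2 without mouse 9 or with length offsets called 0 of the 10 genes. The fit without ketamine mice 3 and 5 sets 1 ketamine mouse against 3 saline mice, which alone give the spread, so its calls bear on no group difference and only its values are used. The count over all genes was 0 by limma, 182 by DESeq2, 434 by DESeq2 without mouse 9 and 250 with length offsets, and 0 to 1 with each mouse left out. DESeq2 without mouse 9 called 1 pathway gene, Ddit4l.

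Signs were less stable, and apart from the setting's own construction the cause was not tested. With each mouse left out, log2 fold changes ran from -0.29 to 0.19 for Mtor, -0.34 to 0.0801 for Rptor, -0.45 to 0.17 for Tsc1, -0.17 to 0.12 for Rheb, -0.37 to 0.052 for Eif4ebp1, -0.24 to 0.43 for Eif4ebp2 and -0.10 to 0.071 for Eef2. The sign turned without ketamine mouse 9 for Mtor, Rptor, Tsc1, Rheb, Eif4ebp2 and Eef2, without saline mouse 1 for Mtor (0.0065) and Eif4ebp2 (0.0084), without saline mouse 10 for Rheb (-0.0030) and Eef2 (0.032) and without ketamine mouse 3 for Eif4ebp1. DESeq2 without mouse 9 gave 0.19 for Mtor, 0.078 for Rptor, 0.17 for Tsc1, 0.011 for Tsc2, -0.16 for Rheb, 0.44 for Eif4ebp2 and 0.075 for Eef2. Eif4ebp2 was 0.0072 with TMM scaling, 0.12 with edgeR, 0.12 with DESeq2 and 0.17 with length offsets. Without ketamine mice 3 and 5, Eif4ebp1 was 0.079 and Deptor 0.25. With each mouse left out, ratio differences ran from -0.73 to 0.27 for Eif4ebp1 to Eif4ebp2, -0.15 to 0.17 for Tsc1 to Tsc2, -0.082 to 0.055 for Rptor to Rictor and -0.40 to -0.075 for Eef2k to Eef2. Length centring gave 0.071 for Tsc1 to Tsc2. No paired analysis was possible because the groups share no mouse number.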
